A study of Mus musculus and Homo sapiens with 32 samples.

Results

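The renin-angiotensin system was followed here through 9 mouse genes, Ren1, Agt, Ace, Enpep, Mme, Agtr1a, Agtr1b, Mas1 and Atp6ap2, found by gene name among the 57180 genes of a kidney count table; all 9 were listed. The libraries came from kidneys of Pcmt1 tKO mice and of Pcmt1 fl/fl mice, where Pcmt1 encodes an enzyme that repairs damaged aspartyl residues in proteins and fl/fl denotes floxed alleles. What tKO stands for, and which promoter drives the deletion, was not given in the sources used here, nor were strain, age or time after surgery. Each genotype had 3 groups of 3 libraries: unilateral ureteral obstruction with LY2109761 (UUO+LY), obstruction with the solvent DMSO (UUO) and a sham operation with DMSO (sham). Obstruction of one ureter is a standard model of kidney fibrosis, and LY2109761 blocks the kinases of the TGF-β receptors. A sham group with LY2109761 was not among these libraries. A whole kidney table of Pcmt1 KO and WT mice and a table of PCMT1 KO and WT HK-2 cells, an immortalised human proximal tubule line, were looked up for the same genes.

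In this system renin, made by juxtaglomerular cells of the afferent arteriole, cuts angiotensinogen to angiotensin I, and angiotensin-converting enzyme (ACE) trims that to angiotensin II. Angiotensin II acts on AT1 receptors to raise blood pressure and sodium retention, while further peptidases shorten it or divert angiotensin I into angiotensin-(1-7), a peptide that acts through the Mas receptor. The kidney makes most of these parts itself: angiotensinogen, ACE and the peptidases aminopeptidase A and neprilysin are made in or carried on the brush border of the proximal tubule, and ACE also lines blood vessels.

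The 18 libraries held 13015669 to 19565376 assigned reads. Mitochondrially encoded genes took 12.3 to 18.8% of reads in tKO UUO+LY libraries, 12.1 to 16.4% in fl/fl UUO+LY, 9.88 to 16.2% in tKO UUO, 7.43 to 7.67% in fl/fl UUO, 33.7, 49.7 and 69.5% in tKO sham and 30.8 to 35.5% in fl/fl sham libraries. Values below are therefore read counts scaled to library size (CPM), with the sizes adjusted by TMM, a method that sets the bulk of genes equal between libraries. For UUO against sham the median log2 change of all genes was 1.06 in tKO and 0.76 in fl/fl with plain column totals, and 0.02 in each with TMM. Column totals split the genes that changed in fl/fl into 8544 higher and 906 lower, against 4031 higher and 3594 lower with TMM. The targeted gene Pcmt1 was at 22.7, 24.3 and 49.3 CPM in tKO sham libraries, against 42.8 to 48.9 CPM in fl/fl sham libraries; the high value belonged to the library labelled tKO sham replicate 1, which on this gene went against its label. In the other genotype pairs Pcmt1 was at 23.1 to 27.9 CPM in tKO UUO+LY and 25.7 to 38.9 CPM in fl/fl UUO+LY, and at 24.7 to 26.1 CPM in tKO UUO and 35.3 to 41.4 CPM in fl/fl UUO libraries. The library labelled fl/fl UUO+LY replicate 3, at 25.7 CPM, lay within the range of the tKO UUO+LY libraries. Pcmt1 itself did not pass the test between genotypes in UUO+LY (log2 difference -0.29, adjusted p = 0.535), UUO (-0.61, adjusted p = 0.0818) or sham (-0.48, adjusted p = 0.182). Y-linked Ddx3y was at 20.9 to 41.6 CPM and Xist at no more than 0.64 CPM in all 18 libraries. The labels do not say whether the 3 libraries of a group came from separate animals, so p-values measure the spread between these libraries. They are p-values of edgeR's quasi-likelihood test, adjusted by Benjamini-Hochberg over the 19256 genes tested, and a gene is said to have risen or fallen where the adjusted p was under 0.05.

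In mouse build GRCm38, Ren1 spans chr1:133350510-133360325 on the plus strand, Ace chr11:105967945-105989964 on the plus strand, Enpep chr3:129269175-129332720 on the minus strand and Mme chr3:63241537-63386030 on the plus strand. The receptor genes Agtr1a (chr13:30336441-30382867, plus), Agtr1b (chr3:20314473-20367177, minus) and Mas1 (chr17:12841079-12868143, minus) and the X-linked Atp6ap2 (chrX:12587801-12617049, plus) complete the set. RefSeq promoter windows of build GRCm38.p6 matched 8 of the 9 genes by symbol. The 250 bases upstream of the RefSeq start are shown for Ren1 and Ace, the 2 enzymes that make angiotensin II. Both RefSeq starts lie inside the spans given above, which are from GENCODE M21, so each window overlaps its gene's span in part. Letters that match any of 5 searched motifs are in capitals.
Ren1, chr1:133350424-133350673, plus strand: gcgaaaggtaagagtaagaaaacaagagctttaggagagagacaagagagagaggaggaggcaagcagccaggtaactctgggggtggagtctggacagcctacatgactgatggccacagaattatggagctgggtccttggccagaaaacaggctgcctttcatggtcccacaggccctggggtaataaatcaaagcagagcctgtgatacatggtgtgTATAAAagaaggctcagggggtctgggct
Ace, chr11:105967698-105967947, plus strand: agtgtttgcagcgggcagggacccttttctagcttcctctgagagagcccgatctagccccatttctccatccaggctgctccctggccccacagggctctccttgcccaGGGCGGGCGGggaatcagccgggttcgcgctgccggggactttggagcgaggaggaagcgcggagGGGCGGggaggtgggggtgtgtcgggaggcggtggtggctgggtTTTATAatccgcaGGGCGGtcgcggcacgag

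The motifs, searched on both strands, were the TATA box (TATAAA), the GC box (GGGCGG), the CCAAT box (CCAAT), a nuclear receptor half-site (AGGTCA) and an HNF1 half-site (GTTAAT). Both windows held 1 TATAAA, at position -29 from the start of Ren1 and, on the opposite strand, at position -31 from that of Ace; 12.4% of all 32851 RefSeq windows of this length held it. The Ace window also held 4 GGGCGG, of which the first pair overlapped, and 32.7% of all windows held at least 1. The other motifs were present in 33.8% (CCAAT), 14% (AGGTCA) and 6.43% (GTTAAT) of all windows, and neither window held them. RefSeq gives Ace a second start inside the gene, which in mouse is known to serve the testis form of the enzyme; the counts per gene do not separate the 2 starts. These matches describe the letters of the windows only.

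Ranked by the deposited FPKM, which divides by transcript length, Agt had the highest mean of the 9 transcripts in every group. In fl/fl UUO kidneys it averaged 43.4 ± 4.68 FPKM and Ren1 39.2 ± 33.5 FPKM, which did not differ beyond their spread. In fl/fl sham kidneys the mean FPKM was 58.2 ± 23.8 for Agt, 23.8 ± 3.70 for Atp6ap2, 22.0 ± 1.80 for Ace, 14.4 ± 4.51 for Ren1, 6.95 ± 1.70 for Enpep, 6.65 ± 0.785 for Mme and 4.97 ± 2.197 for Agtr1a (SD, n = 3). Atp6ap2 and Ace did not differ beyond their spread in that order, nor did Enpep, Mme and Agtr1a. The receptor genes Mas1, at 0.167 ± 0.05 FPKM, and Agtr1b, at 0.0162 ± 0.0280 FPKM, stood far below the others. In tKO sham kidneys Ace averaged 9.39 ± 5.11 FPKM and was below Ren1, at 10.3 ± 7.63 FPKM, a pair that did not differ beyond its spread.

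With obstruction the transcripts of ACE and of the Mas receptor fell in both genotypes and that of angiotensinogen fell in fl/fl kidneys, while renin, the AT1 receptor and the prorenin receptor did not pass the test in either with TMM scaling. In fl/fl kidneys 3 of the 8 genes with enough reads to be tested had fallen and none had risen, where 39.6% of all genes tested were called and 18.7% were called lower; their median log2 change was -0.62, against 0.02 over all genes. In tKO kidneys 2 of 8 had fallen, where 41% of all genes were called and 19.4% were called lower, with a median of -0.15 against 0.02.

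**Figure D1:**
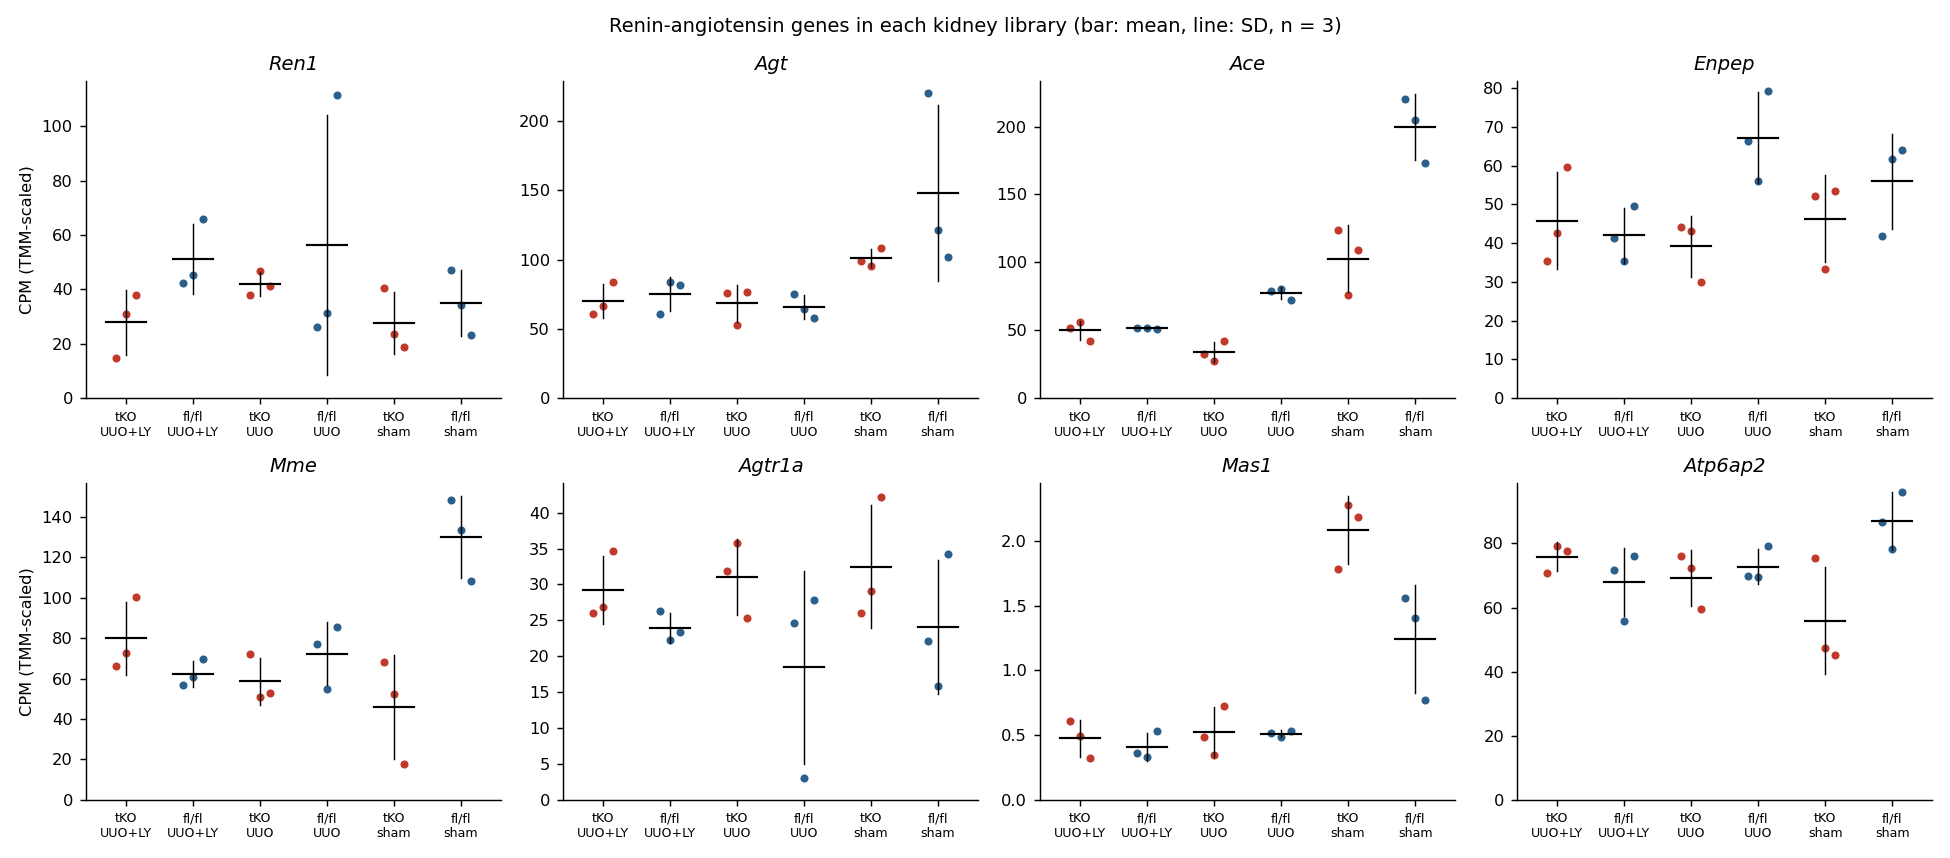
Library values of the 8 tested genes in CPM on TMM-scaled library sizes, on linear axes from 0, by group (red, tKO; blue, fl/fl); bars are means and lines SD of 3 libraries. Ace and Mas1 are lower in all UUO libraries than in sham libraries of the same genotype, and Ren1 in fl/fl UUO and Agtr1a in fl/fl UUO each have 1 library far from the other 2.

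Ren1 encodes renin, the enzyme that starts the cascade. It was at 37.9, 46.9 and 41.1 CPM in tKO UUO libraries, 26.3, 31.1 and 111.5 CPM in fl/fl UUO libraries, 40.4, 23.5 and 18.9 CPM in tKO sham libraries and 47.3, 34.3 and 23.3 CPM in fl/fl sham libraries. The groups overlapped, and a single fl/fl UUO library, replicate 3, stood at more than all other libraries. The log2 change with UUO was 0.59 (SE 0.49, adjusted p = 0.356) in tKO kidneys and 0.69 (SE 0.48, adjusted p = 0.282) in fl/fl kidneys; without fl/fl UUO replicate 3 the fl/fl value was -0.28 (adjusted p = 0.615). With column totals Ren1 was called higher with UUO in both genotypes, at 1.52 (adjusted p = 0.0225) in tKO and 1.45 (adjusted p = 0.0365) in fl/fl kidneys, beside medians over all genes of 1.06 and 0.76. Between genotypes it was -0.33 (adjusted p = 0.696) in sham and -0.42 (adjusted p = 0.573) in UUO, with intervals of -1.36 to 0.71 and -1.44 to 0.60. With LY2109761 Ren1 was at 14.8, 30.7 and 38.0 CPM in tKO UUO+LY libraries and 42.4, 45.3 and 66.1 CPM in fl/fl UUO+LY libraries. These last groups did not overlap, at a log2 difference of -0.88 (95% interval -1.91 to 0.15, adjusted p = 0.335). Some mouse strains carry a second renin gene, Ren2, which the table does not list; reads from it could not be told apart from those of Ren1.

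Beside Ren1, of 14 juxtaglomerular and mural cell genes, 5 had risen and 2 had fallen with UUO in tKO kidneys (median log2 change 0.32). In fl/fl kidneys 6 had risen and 1 had fallen (median 0.92), while 7 passed in neither direction in each genotype. Of all genes tested, 41% were called with UUO in tKO and 39.6% in fl/fl kidneys, shares that also apply to the marker lists below. Pdgfrb, a receptor of pericytes and fibroblasts, rose by 1.71 on the log2 scale (adjusted p = 4.21e-06) in tKO and by 2.22 (adjusted p = 4.8e-07) in fl/fl kidneys. The summed level of the 14 genes was 688 to 827 CPM in tKO UUO and 474 to 621 CPM in fl/fl UUO libraries. In sham it was 480 to 690 CPM in tKO and 275 to 421 CPM in fl/fl libraries. Pdgfrb alone averaged 230 CPM in tKO UUO against 70.5 CPM in tKO sham, and 167 CPM in fl/fl UUO against 36.0 CPM in fl/fl sham. Gja5 averaged 12.7 against 14.9 CPM in tKO and 9.45 against 12.9 CPM in fl/fl kidneys. Akr1b7 averaged 6.06 against 4.88 CPM in tKO and 4.50 against 4.34 CPM in fl/fl kidneys. The sums therefore do not stand for renin-making cells alone. The macula densa holds the salt-sensing cells that signal renin release. Of 5 genes on its list, 3 had fallen in each genotype and 1, Ptgs2, had risen in tKO kidneys. Among the falls was the sodium transporter gene Slc12a1, which fell by 3.04 (adjusted p = 4e-06) in tKO and fell by 2.97 (adjusted p = 4.65e-06) in fl/fl kidneys. Their summed level was 145 to 250 CPM in tKO UUO and 124 to 207 CPM in fl/fl UUO, against 1136 to 1682 CPM in tKO sham and 814 to 1293 CPM in fl/fl sham libraries. In bulk tissue, fewer cells of a type and less RNA per cell cannot be told apart.

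Agt encodes angiotensinogen, the only known precursor of the angiotensin peptides. It lies on mouse chromosome 8, at 124556534 to 124569706 on the minus strand. It was at 76.0, 52.8 and 76.3 CPM in tKO UUO libraries, 75.3, 64.1 and 57.9 CPM in fl/fl UUO libraries, 98.9, 95.5 and 109 CPM in tKO sham libraries and 221, 121 and 102 CPM in fl/fl sham libraries. All UUO libraries lay below all sham libraries of either genotype, and fl/fl sham replicate 1 stood above the rest. Agt fell with UUO in fl/fl kidneys, by 1.17 on the log2 scale (SE 0.25, adjusted p = 0.00136), and by 0.76 (adjusted p = 0.00796) without that library. In tKO kidneys the log2 change was -0.56 (SE 0.25, adjusted p = 0.0793); the difference between the genotypes' changes was 0.61 (95% interval -0.13 to 1.34, adjusted p = 0.5), so a smaller change in tKO was not shown. With column totals the fl/fl change was -0.42 (adjusted p = 0.242) and the tKO change turned to 0.52 (adjusted p = 0.136), beside medians over all genes of 0.76 and 1.06. Between genotypes the log2 difference was -0.55 in sham (adjusted p = 0.143) and 0.06 in UUO (adjusted p = 0.898).

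The liver is the main source of circulating angiotensinogen, and liver genes are given beside Agt. Of 6 tested genes on a liver list, 5 had fallen and 1 had risen with UUO in each genotype, where Apoa1 fell by 2.31 (adjusted p = 0.000291) in tKO and fell by 2.87 (adjusted p = 5.01e-05) in fl/fl kidneys. The fibrinogen chain gene Fgb rose by 5.04 (adjusted p = 1.17e-05) in tKO and by 6.28 (adjusted p = 8.8e-07) in fl/fl kidneys. Summed levels of the list were 23.3 to 67.9 CPM in tKO UUO and 61.4 to 102 CPM in fl/fl UUO libraries. In sham they were 143 to 181 CPM in tKO and 302 to 559 CPM in fl/fl libraries. Most of the sham sums came from Serpina1a and Ttr, at means of 248 and 129 CPM in fl/fl sham and 68.8 and 86.7 CPM in tKO sham. Alb, Apoa1 and Apoa2 averaged 4.26, 2.73 and 5.66 CPM in fl/fl sham kidneys. Of the 7 listed genes, 1 was at 0 in all fl/fl UUO and in all fl/fl sham libraries. Their part in the Agt values was not tested.

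Ace, which encodes the enzyme that makes angiotensin II, was the member with the most differences. It was at 32.6, 27.0 and 42.1 CPM in tKO UUO libraries, 79.1, 80.6 and 72.6 CPM in fl/fl UUO libraries, 124, 75.6 and 109 CPM in tKO sham libraries and 221, 205 and 173 CPM in fl/fl sham libraries. None of these 4 groups overlapped with the group it was set against. Ace fell with UUO by 1.60 on the log2 scale (SE 0.19, adjusted p = 8.83e-06) in tKO kidneys and by 1.37 (SE 0.18, adjusted p = 3.22e-05) in fl/fl kidneys, and the difference between these changes was -0.23 (95% interval -0.78 to 0.31, adjusted p = 0.768). The tKO value was -1.44 (adjusted p = 4.99e-05) when the library labelled tKO sham replicate 1 was left out. With column totals the changes were -0.56 (adjusted p = 0.0886) and -0.62 (adjusted p = 0.0766), beside medians over all genes of 1.06 and 0.76.

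Set by genotype, Ace was lower in tKO kidneys in both DMSO conditions. The log2 difference was -0.96 in sham (SE 0.18, 95% interval -1.35 to -0.57, adjusted p = 0.00812) and -1.19 in UUO (SE 0.18, 95% interval -1.58 to -0.80, adjusted p = 0.00169). Without the library labelled tKO sham replicate 1 the sham difference was -1.12 (adjusted p = 0.00203). It was -0.999 (adjusted p = 0.0214) without tKO sham replicate 3, which had the highest mitochondrial share. Fitted on the 6 sham libraries alone, it was -0.95 but did not pass (adjusted p = 0.0917); that fit called 6 genes in all, against 2375 in the fit to all libraries. In all, 3 of 8 genes were lower in tKO sham kidneys, where 12.3% of all genes were called and 6.57% were called lower, and 2 of 8 in tKO UUO kidneys, where 17.9% were called and 9.65% called lower. The members' median log2 difference was -0.44 in sham and -0.19 in UUO, against 0.03 and 0.05 over all genes.

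In kidneys given LY2109761 the genotypes did not separate at Ace. The gene was at 51.7, 55.7 and 42.1 CPM in tKO UUO+LY libraries and 51.9, 51.8 and 50.9 CPM in fl/fl UUO+LY libraries, which overlapped, with a log2 difference of -0.05 (95% interval -0.44 to 0.34, adjusted p = 0.913). Against UUO alone, the log2 change with the inhibitor was 0.56 (SE 0.18, adjusted p = 0.147) in tKO kidneys, where the groups overlapped, and -0.59 (SE 0.18, adjusted p = 0.0727) in fl/fl kidneys, where they did not overlap. Neither change passed alone with edgeR, and DESeq2 called the fl/fl one (adjusted p = 0.0257). The difference between the genotypes' changes did pass, at 1.14 (SE 0.26, 95% interval 0.59 to 1.69, adjusted p = 0.0115), and stayed between 1.002 and 1.33 with each library left out in turn (highest adjusted p = 0.032). It was the only 1 of 8 members called in that comparison, where 13.8% of all genes were called and 7.05% were called higher; with column totals it was 1.15 with an adjusted p of 0.15.

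**Figure D2:**
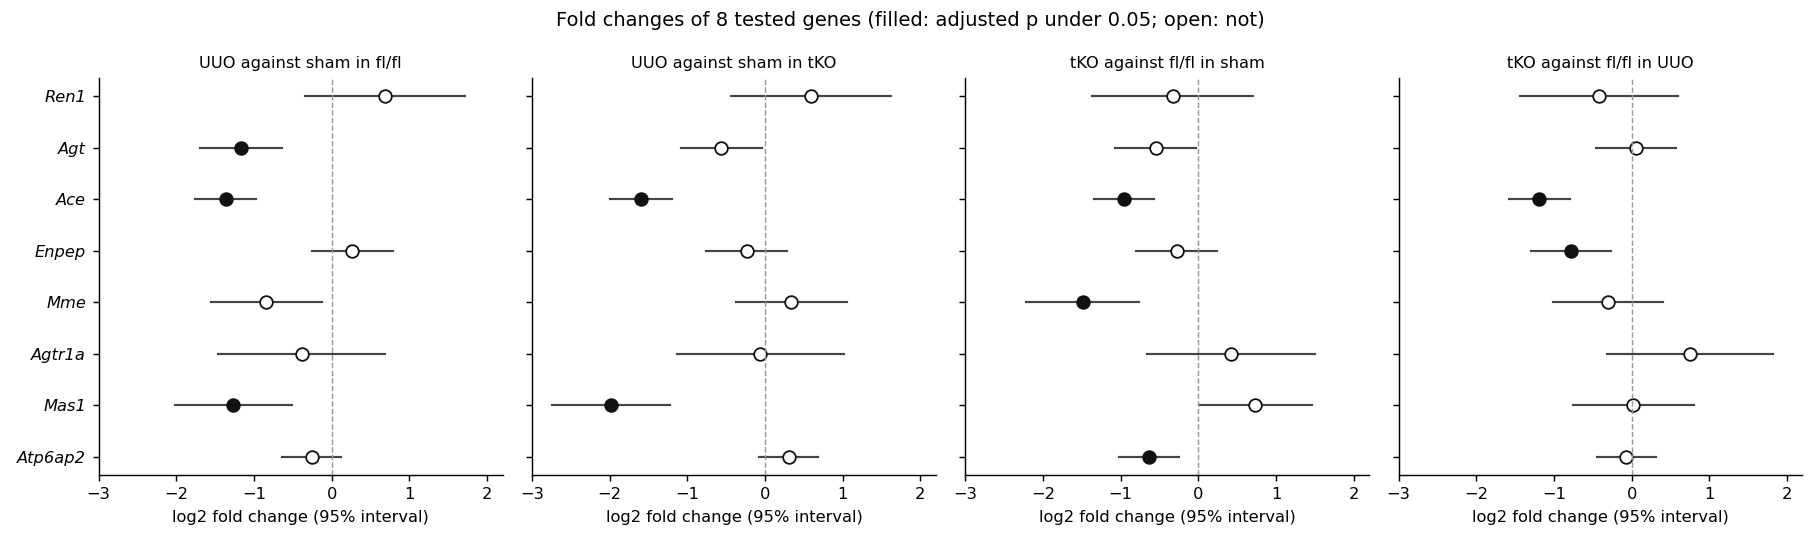
Log2 fold changes (dots) and 95% intervals (lines) of the 8 tested genes in 4 comparisons, on a linear log2 axis; filled dots passed an adjusted p of 0.05. Ace is filled in all 4 panels, Mas1 in both UUO panels, and every filled dot lies below 0.

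Ace is carried by proximal tubule and endothelium, and markers of both are given beside it. Of 16 proximal tubule genes, 13 had fallen with UUO in tKO kidneys and none had risen, and 11 had fallen and 1 had risen in fl/fl kidneys. Between genotypes 4 of 16 were lower in tKO sham and 7 of 16 in tKO UUO kidneys, led by the endocytic receptor genes Cubn (-1.59, adjusted p = 0.000559 in UUO) and Lrp2 (-1.53, adjusted p = 0.00186) and the scaffold gene Pdzk1 (-1.45, adjusted p = 0.000711). In the comparison of the inhibitor's effect between genotypes, 5 of 16 were higher and none lower. The summed level of the list was 5831 to 10040 CPM in tKO UUO+LY and 6560 to 10790 CPM in fl/fl UUO+LY libraries. It was 5486 to 7598 CPM in tKO UUO and 5790 to 9626 CPM in fl/fl UUO libraries. In sham it was 27780 to 44090 CPM in tKO and 31810 to 44700 CPM in fl/fl libraries. The largest part of these sums was 1 gene, Kap. Its mean was 25073 CPM in tKO sham, 27713 CPM in fl/fl sham, 4405 CPM in tKO UUO and 3524 CPM in fl/fl UUO. By these means Kap was not lower in tKO UUO kidneys, so the sums do not show the 7 genes that were lower there. Of 8 endothelial genes, 4 had risen and 1 had fallen with UUO in tKO kidneys (median log2 change 0.41). In fl/fl kidneys 1 had risen and 2 had fallen (median 0.03). Between genotypes 1 was lower in tKO sham and 1 higher in tKO UUO kidneys. The summed level of the 8 genes was 550.4 to 722 CPM in tKO UUO, 438 to 514 CPM in fl/fl UUO, 359.6 to 430 CPM in tKO sham and 388 to 479 CPM in fl/fl sham libraries. No gene of either list was at 0 throughout a group, and the lists' part in the Ace values was not tested.

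Enpep encodes aminopeptidase A, which turns angiotensin II into angiotensin III. It was at 35.3, 42.6 and 59.6 CPM in tKO UUO+LY libraries, 41.4, 35.3 and 49.5 CPM in fl/fl UUO+LY libraries, 44.1, 43.3 and 30.1 CPM in tKO UUO libraries and 66.3, 56.1 and 79.4 CPM in fl/fl UUO libraries. In the sham groups it was at 52.1, 33.3 and 53.4 CPM in tKO and 41.9, 61.9 and 64.0 CPM in fl/fl libraries. The tKO UUO libraries lay below the fl/fl UUO libraries, and the other genotype pairs overlapped. Enpep was lower in tKO UUO kidneys, by -0.78 on the log2 scale (SE 0.25, adjusted p = 0.038), a call that 5 of 6 fits with 1 of these libraries left out did not keep (adjusted p up to 0.149). With column totals it was -0.74 (adjusted p = 0.183), and without the low-count filter -0.79 (adjusted p = 0.0546). Its changes with UUO were -0.24 (adjusted p = 0.467) in tKO and 0.27 (adjusted p = 0.418) in fl/fl kidneys; with column totals Enpep was called higher in both (0.84 in tKO, adjusted p = 0.0275; adjusted p = 0.0154 in fl/fl). The genotypes' difference in the inhibitor's effect was 0.90 (95% interval 0.17 to 1.64, adjusted p = 0.0937).

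Mme encodes neprilysin, which makes angiotensin-(1-7) from angiotensin I and degrades other peptides. It was at 72.0, 50.9 and 52.9 CPM in tKO UUO libraries, 77.0, 54.8 and 85.3 CPM in fl/fl UUO libraries, 68.1, 52.2 and 17.5 CPM in tKO sham libraries and 148, 134 and 108 CPM in fl/fl sham libraries. The fl/fl sham libraries stood above all others, and tKO sham replicate 3, with 88 reads, below all others. Mme was lower in tKO sham kidneys, by -1.49 on the log2 scale (SE 0.34, adjusted p = 0.0155). Leaving out the library labelled tKO sham replicate 1 gave -1.88 (adjusted p = 0.00323), and the value was -1.58 (adjusted p = 0.0546) without replicate 2 and -1.11 (adjusted p = 0.0221) without replicate 3. On the sham libraries alone it was -1.49 (adjusted p = 0.115), and with column totals -1.58 (adjusted p = 0.0886). With UUO the log2 change was 0.34 (adjusted p = 0.451) in tKO and -0.85 (adjusted p = 0.0576) in fl/fl kidneys, and DESeq2 called the fl/fl one (adjusted p = 0.0489). Column totals gave 1.21 (adjusted p = 0.0307) in tKO and -0.10 (adjusted p = 0.865) in fl/fl kidneys. The difference between these changes was 1.18 (95% interval 0.17 to 2.195, adjusted p = 0.313). With the inhibitor Mme was at 66.4, 72.7 and 101 CPM in tKO UUO+LY libraries and 56.6, 60.5 and 69.5 CPM in fl/fl UUO+LY libraries.

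Agtr1a encodes the main AT1 receptor, through which angiotensin II constricts vessels and retains sodium. It was at 26.0, 26.9 and 34.7 CPM in tKO UUO+LY libraries, 26.3, 22.2 and 23.4 CPM in fl/fl UUO+LY libraries, 31.9, 35.8 and 25.4 CPM in tKO UUO libraries and 24.6, 3.004 and 27.8 CPM in fl/fl UUO libraries. In the sham groups it was at 26.1, 29.2 and 42.2 CPM in tKO and 22.1, 15.9 and 34.2 CPM in fl/fl libraries. All groups overlapped the group they were set against, and fl/fl UUO replicate 2, with 62 reads, lay far below all other libraries. The log2 change with UUO was -0.06 (adjusted p = 0.94) in tKO and -0.39 (95% interval -1.46 to 0.69, adjusted p = 0.584) in fl/fl kidneys, and the fl/fl value turned to 0.12 (adjusted p = 0.776) without that library. The genotype difference was 0.42 (adjusted p = 0.617) in sham and 0.75 (95% interval -0.32 to 1.82, adjusted p = 0.32) in UUO. Agtr1b, the second AT1 receptor gene of rodents, had 0 to 4 reads per library and 19 in all, was listed at 0 in all fl/fl UUO libraries and was not tested.

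Mas1 encodes the receptor of angiotensin-(1-7). It had 5 to 24 reads per library, at 0.488, 0.345 and 0.728 CPM in tKO UUO libraries, 0.515, 0.485 and 0.535 CPM in fl/fl UUO libraries, 1.79, 2.28 and 2.19 CPM in tKO sham libraries and 1.56, 1.40 and 0.771 CPM in fl/fl sham libraries. All UUO libraries lay below all sham libraries. Mas1 fell with UUO by 1.98 on the log2 scale (SE 0.36, adjusted p = 0.000375) in tKO kidneys and by 1.27 (SE 0.36, adjusted p = 0.00992) in fl/fl kidneys, and without fl/fl sham replicate 1 by 1.07 in fl/fl (adjusted p = 0.0521). With column totals the changes were -0.92 (adjusted p = 0.0576) and -0.52 (adjusted p = 0.301). The genotype difference in sham was 0.74 (95% interval 0.01 to 1.47, adjusted p = 0.163), where the tKO libraries lay above the fl/fl ones. The long non-coding RNA gene Airn overlaps Mas1 on the opposite strand and had 31 to 104 reads per library, and the strand setting of the counting is not stated, so reads of the pair could not be told apart.

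Atp6ap2 encodes the prorenin receptor, which is also a subunit of the vacuolar proton pump. It was at 76.2, 72.3 and 59.5 CPM in tKO UUO libraries, 69.7, 69.4 and 79.1 CPM in fl/fl UUO libraries, 75.3, 47.3 and 45.2 CPM in tKO sham libraries and 86.7, 78.3 and 96.1 CPM in fl/fl sham libraries. The highest of the tKO sham values belonged to the library labelled tKO sham replicate 1, just below the lowest fl/fl sham library. The log2 difference in sham was -0.63 (SE 0.18, adjusted p = 0.0339). It was -0.91 (adjusted p = 0.00162) without that library, and 5 of 6 fits with 1 library left out did not pass (adjusted p up to 0.15). Nor did the fit on the sham libraries alone (-0.62, adjusted p = 0.151) or that with column totals (-0.84, adjusted p = 0.164). The change with UUO was 0.31 (adjusted p = 0.192) in tKO kidneys, where it was 0.59 (adjusted p = 0.00695) without that library, and -0.26 (adjusted p = 0.273) in fl/fl kidneys. Column totals gave 1.28 (adjusted p = 0.0036) in tKO and 0.48 (adjusted p = 0.24) in fl/fl kidneys. With the inhibitor Atp6ap2 was at 70.8, 79.3 and 77.6 CPM in tKO UUO+LY and 71.6, 55.9 and 76.1 CPM in fl/fl UUO+LY libraries.

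Against sham, obstruction with the inhibitor gave falls in Ace, Agt, Mas1 and Mme in fl/fl kidneys, 4 of 8 genes, where 42% of all genes were called and 19.6% called lower, and in Ace and Mas1 in tKO kidneys, where 39.8% were called and 19% called lower. In fl/fl the log2 changes were -1.95 for Ace (adjusted p = 1.38e-06), -0.97 for Agt (adjusted p = 0.00468), -1.57 for Mas1 (adjusted p = 0.00288) and -1.06 for Mme (adjusted p = 0.0192). In tKO they were -1.04 for Ace (adjusted p = 0.000388) and -2.10 for Mas1 (adjusted p = 0.000316). These comparisons share their sham libraries with those of UUO without the inhibitor. In tKO kidneys the call for Ace was lost with column totals, where its change was -0.07 (adjusted p = 0.84). In fl/fl kidneys column totals kept the Ace call (-1.28, adjusted p = 0.00167) and lost those of Agt (-0.30, adjusted p = 0.416), Mas1 (-0.90, adjusted p = 0.0933) and Mme (-0.39, adjusted p = 0.5); Mme also missed the threshold in 3 of 6 fits with 1 library left out (adjusted p up to 0.0648). Without the library labelled tKO sham replicate 1, Mme (1.19, adjusted p = 0.0162) and Atp6ap2 (0.72, adjusted p = 0.00209) were higher in tKO UUO+LY than in tKO sham kidneys.

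Elsewhere no member was called. With edgeR 0 of 8 differed between tKO UUO+LY and fl/fl UUO+LY, where 2.98% of all genes were called; 0 had an unadjusted p under 0.05, and DESeq2 called 0. For UUO+LY against UUO 0 of 8 were called in tKO kidneys, where 0.171% of all genes were, with 1 at an unadjusted p under 0.05 and 0 by DESeq2. In fl/fl kidneys 0 of 8 were called, where 5.15% of all genes were, with 2 at an unadjusted p under 0.05 and 1, Ace, by DESeq2. For the genotypes' difference in the effect of UUO 0 of 8 were called, where 0.0415% of all genes were, with 2 at an unadjusted p under 0.05 and 0 by DESeq2.

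The pathway holds further peptidases and regulators. Of 16 on a second list, 9 had enough reads to be tested. With UUO 3 had risen and 2 had fallen in tKO kidneys, where 41% of all genes were called, and likewise 3 and 2 in fl/fl kidneys, where 39.6% were called. Both falls were those of Klk1, tissue kallikrein, which releases kinins, and Anpep, aminopeptidase N, which turns angiotensin III into angiotensin IV. Klk1 fell by 4.25 on the log2 scale (adjusted p = 6.5e-07) in tKO kidneys and fell by 3.86 (adjusted p = 1.15e-06) in fl/fl kidneys. Anpep fell by 0.83 in tKO (adjusted p = 0.00695) and fell by 0.83 in fl/fl kidneys (adjusted p = 0.00657) with TMM. On column totals its UUO and sham libraries overlapped in both genotypes. In tKO they were at 58.3, 75.0 and 61.6 CPM in UUO and 62.8, 60.1 and 37.0 CPM in sham. In fl/fl they were at 95.7, 85.9 and 83.3 CPM in UUO and 74.5, 96.4 and 113 CPM in sham. Tests with column totals are not given for this list. Prep, a prolyl endopeptidase able to form angiotensin-(1-7), rose by 0.56 (adjusted p = 0.0247) in tKO and 1.08 (adjusted p = 0.000257) in fl/fl kidneys. Lnpep, the insulin-regulated aminopeptidase that binds angiotensin IV, rose by 0.76 (adjusted p = 0.000403) in tKO and 0.42 (adjusted p = 0.0222) in fl/fl kidneys. The third rise was that of Prcp (0.76, adjusted p = 0.00192), a carboxypeptidase acting on angiotensin II, in tKO kidneys and that of Nln, neurolysin (0.50, adjusted p = 0.00286), in fl/fl kidneys. Thop1, Ctsa and Agtrap passed in neither.

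**Figure D3:**
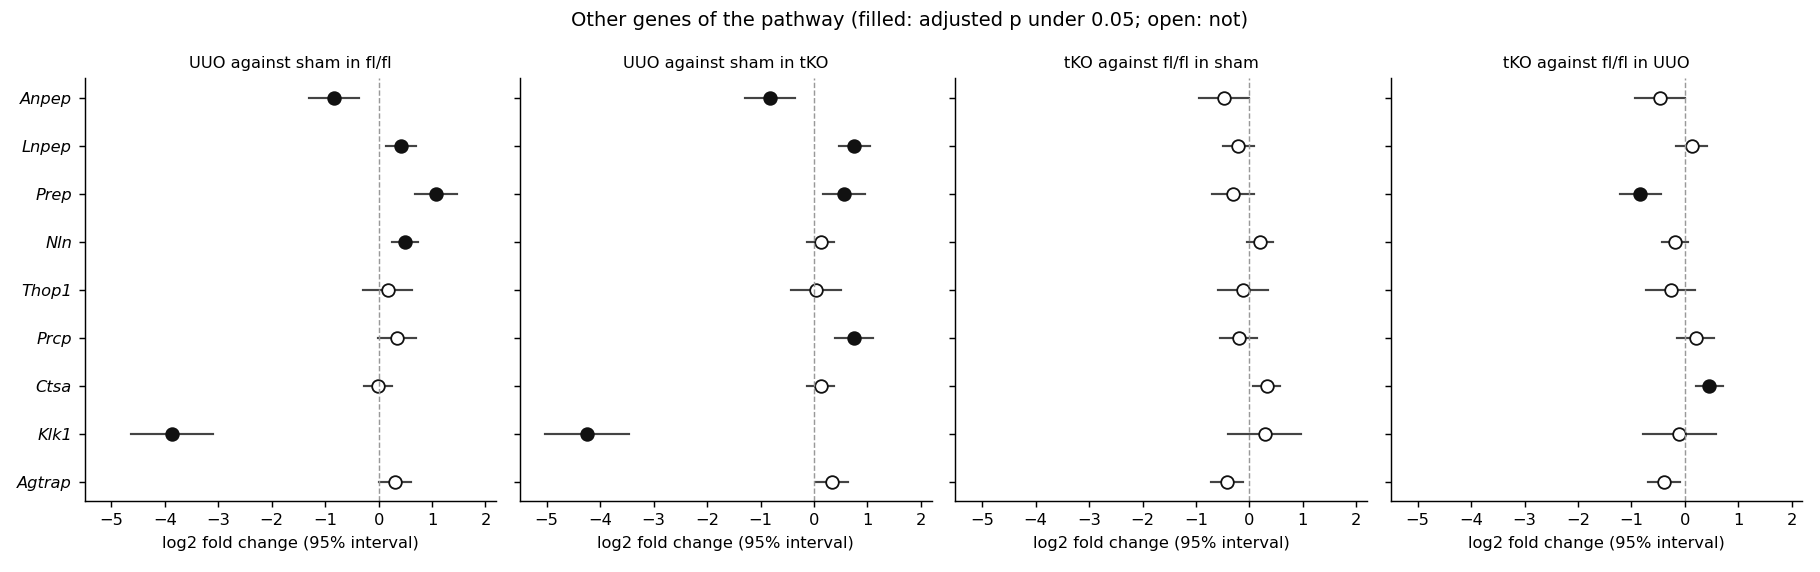
Log2 fold changes (dots) and 95% intervals (lines) of 9 further genes of the pathway in 4 comparisons, on a linear log2 axis; filled dots passed an adjusted p of 0.05. Klk1 lies at -4.25 in tKO and -3.86 in fl/fl kidneys in the UUO panels, and Prep is filled and below 0 in the panel of genotypes in UUO.

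Prep was lower in tKO UUO kidneys than in fl/fl UUO kidneys (-0.83, adjusted p = 0.00809), and Ctsa, cathepsin A, was higher there (0.46, adjusted p = 0.0185). The genotypes' difference in the inhibitor's effect was 1.13 for Prep (SE 0.26, adjusted p = 0.0116) and -0.60 for Ctsa (adjusted p = 0.031). In counts, 0 of the 9 were called between tKO sham and fl/fl sham kidneys with edgeR, where 12.3% of all genes were called. There 3 of the 9 (Agtrap, Anpep and Ctsa) had an unadjusted p under 0.05. In tKO UUO kidneys 1 was lower and 1 higher, where 17.9% of all genes were called. For the genotypes' difference in the inhibitor's effect 1 was lower and 1 higher, where 13.8% of all genes were called.

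**Figure D4:**
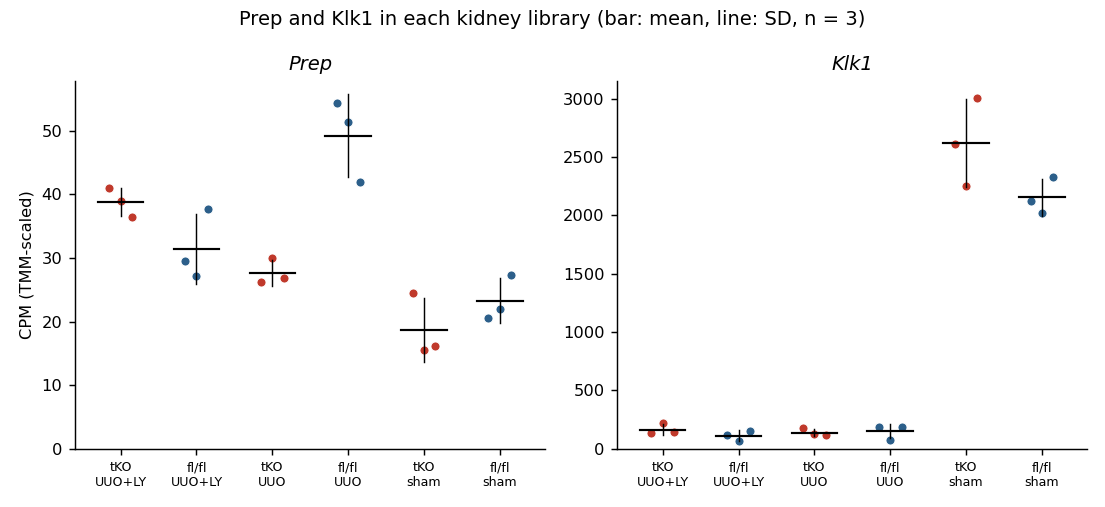
Library values of Prep and Klk1 in CPM on TMM-scaled library sizes, on linear axes from 0, by group (red, tKO; blue, fl/fl); bars are means and lines SD of 3 libraries. Prep lies lower in the tKO UUO than in the fl/fl UUO libraries, and Klk1 is low in all 12 obstructed libraries.

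The 7 genes left untested, Agtr2, Cma1, Cma2, Cpa3, Ctsg, Mcpt4 and Mrgprd, include the second angiotensin receptor type and the mast cell proteases that can make angiotensin II without ACE. They had at most 11 reads in a library. Ctsg and Mrgprd had 0 reads in all 18 libraries, which sets an upper limit of 3 reads for each library.

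Angiotensin II also drives aldosterone, which acts in the distal nephron through the mineralocorticoid receptor. Of 7 tested genes of this arm, 7 had fallen with UUO in tKO kidneys, where 19.4% of all genes were called lower, and 6 in fl/fl kidneys, where 18.7% were. With edgeR 0 were called between genotypes in sham or UUO, with 0 at an unadjusted p under 0.05. Hsd11b2, the enzyme that shields the receptor from cortisol-like steroids, fell by 2.38 (adjusted p = 3.25e-06) in tKO and 2.33 (adjusted p = 3.72e-06) in fl/fl kidneys, and the sodium channel subunit gene Scnn1b fell by 1.79 (adjusted p = 3.74e-06) in tKO and fell by 1.54 (adjusted p = 1.34e-05) in fl/fl kidneys. The summed level of the list was 357 to 435 CPM in tKO UUO and 417 to 479.8 CPM in fl/fl UUO, against 1200 to 1565 CPM in tKO sham and 1288 to 1709 CPM in fl/fl sham libraries. Of 6 tested kallikrein-kinin genes, 3 had fallen and 2 had risen in tKO kidneys, and 2 had fallen and 2 had risen in fl/fl kidneys. The kininogen gene Kng2 fell by 1.80 (adjusted p = 1.84e-06) in tKO and 1.75 (adjusted p = 2.22e-06) in fl/fl kidneys.

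Across the 18 libraries, which share their groups and scaling, the members did not vary as one block. Pearson's r of log2(CPM + 1) was 0.80 for Mme and Atp6ap2, 0.77 for Agt and Ace, 0.68 for Agt and Mas1 and 0.66 for Ace and Mas1, and no higher than 0.44 for any other pair; Ren1 reached 0.31 with its nearest member, Atp6ap2. Among 11855 named genes with a mean of at least 5 CPM, those closest to Ace were Sugct (r = 0.98), Trap1 (0.97) and Aacs (0.97), and those closest to Agt were Slco4c1 (0.89), Serpina1a (0.89) and Pappa (0.88). Mas1 was closest to Ppargc1b (0.97), Mroh1 (0.97) and Prdm16 (0.96), and Mme to Lpgat1 (0.96), Aig1 (0.94) and Ndufaf1 (0.92). Atp6ap2 was closest to Smim7 (0.92), Enpep to Cyp2j13 (0.88) and Agtr1a to Zfp229 (0.94). The value for Agtr1a includes fl/fl UUO replicate 2, at 3.004 CPM far below all other libraries, and r was not computed without it. No gene came closer to Ren1 than Brd3 (0.73).

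The whole kidney table lists 410 genes, which the authors appear to have kept by fold change since none has group means less than 1.5-fold apart. Of the 9 genes it lists Ren1 alone, at 102, 49.1, 73.4 and 63.2 FPKM in KO kidneys and 49.9, 35.3, 43.1 and 40.3 FPKM in WT kidneys (71.9 ± 22.3 and 42.2 ± 6.09, SD, n = 4 each). The ranges overlapped at their ends. The HK-2 table lists 379 genes with means at least 2-fold apart and, of the 8 human counterparts, AGT alone, at 1.60, 1.92 and 1.56 FPKM in KO cells and 0.960, 0.425 and 0.781 FPKM in WT cells, from 47 to 62 reads and 13 to 28 reads. Since both tables hold genes picked by these same differences, no test was made.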

How the data were processed

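The authors deposited read counts and FPKM per gene for 18 kidney libraries of the obstruction experiment, and count and FPKM tables of selected genes for whole kidney and HK-2 cells. Per the submitters' processing notes the tools were fastp, HISAT2 and StringTie and the builds GRCm38 (mm10) and GRCh38 (hg38); the sources used here give no versions, strand setting or annotation. Gene positions in the obstruction table equal those of GENCODE M21 on GRCm38 for 1445 of 51933 shared genes, so coordinates were taken from GENCODE M21 by gene ID.

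Counts were tested with edgeR 4.0.16 in R 4.3.3 (TMM, filterByExpr, quasi-likelihood), with all 18 libraries and 6 group means in 1 fit with 12 residual degrees of freedom; 19256 genes were kept, and 8 of the 9 members. SE is the log2 change divided by the square root of F. The fit was also run on simulated counts. The simulation did not include the differences in mitochondrial share between groups, so it does not bear on the choice of scaling. Alternatives were other scalings, no low-count filter, DESeq2 1.42.0, a replicate block, fits on the compared groups alone and each library left out in turn. Leaving out a library leaves 2 in its group, whose spread is taken from all groups. The labels do not say whether replicate numbers pair the libraries, and the main fit did not treat them as pairs. Named genes were all members, at most 3 genes per marker list by smallest p, all detected genes of the pathway list, and for each member its most correlated genes. Further list genes were named to show what made up a summed level. The members and lists were chosen with earlier results of these data known. 1 listed pathway gene is not reported here.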

Additional observations from a re-analysis of the deposited data

Results flagged for a closer look

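The effect of LY2109761 on Ace differed between the genotypes in obstructed kidneys. The log2 change against UUO alone was 0.56 in tKO kidneys and -0.59 in fl/fl kidneys, and the difference between them, 1.143, passed the test (edgeR, adjusted p = 0.0115). Neither change passed alone with edgeR (adjusted p = 0.147 in tKO and 0.0727 in fl/fl). Ace was 1 of 8 members called in this comparison, where 13.8% of all genes were called. With column totals the difference did not pass, as given with the Ace results. In tKO kidneys 2 of 3 UUO+LY libraries lay above all UUO libraries, and in fl/fl kidneys all 3 lay below.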

How the results depend on the processing

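Each Ace call kept its side of the threshold with RLE size factors, with TMM computed without mitochondrially encoded genes, without the low-count filter, with DESeq2, with a replicate block and with each library left out. Exceptions were the column totals and the fit on sham libraries alone, both given with the Ace results. With column totals the members called became 4 (main 2) for UUO against sham in tKO, where Ren1, Enpep, Mme and Atp6ap2 were called higher and Ace and Mas1 were lost, and 2 (main 3) in fl/fl, where Ren1 and Enpep were called higher and Agt, Ace and Mas1 were lost. They became 1 (main 3) for tKO against fl/fl in sham and 1 (main 2) in UUO. For UUO+LY against sham they became 1 (main 4) in fl/fl and 4 (main 2) in tKO. For the genotypes' difference in the inhibitor's effect they became 0 (main 1). Of all 19256 genes, column totals called 12393 (main 7898) for UUO against sham in tKO, 11678 of them higher. In fl/fl they called 9450 (main 7625), 8544 of them higher. For tKO against fl/fl they called 292 (main 2375) in sham and 680 (main 3449) in UUO. For UUO+LY against sham they called 9006 (main 8083) in fl/fl and 11559 (main 7663) in tKO. For the inhibitor's effect between genotypes they called 289 (main 2664). The count for tKO against fl/fl in UUO was 1 without the filter, where 2415 of 33994 genes were called. It was also 1 with the replicate block, where 3124 of 19256 genes were called. The block lost Enpep (-0.76, adjusted p = 0.0594) and no other member call. In sham the count was 0 on the sham libraries alone. DESeq2 made it 1 (main 0) for UUO+LY against UUO in fl/fl, where DESeq2 called 2055 of 33994 genes. With 1 library left out the count for tKO against fl/fl ran from 1 to 3 in sham and from 1 to 2 in UUO. All genes called there ran from 485 to 4235 in sham and from 1364 to 2803 in UUO. For UUO+LY against sham in tKO the count ran from 2 to 4, and all genes called ran from 6263 to 7563. Values that changed sign were all uncalled with TMM. With column totals they were 0.32 (Agtr1a) and 0.48 (Atp6ap2) for UUO against sham in fl/fl, 0.52 (Agt), 0.84 (Enpep, adjusted p = 0.0275) and 1.10 (Agtr1a) in tKO, and 0.49 (Agt) for UUO+LY against sham in tKO. Agtr1a for UUO against sham in tKO was 0.036 without the filter and 0.012 with the block, and Mas1 for tKO against fl/fl in UUO was -0.014 with TMM without mitochondrially encoded genes. With 1 library left out, UUO against sham ran from -0.28 to 1.03 (Ren1) and from -0.80 to 0.12 (Agtr1a) in fl/fl, and from -0.034 to 0.74 (Mme) and from -0.19 to 0.17 (Agtr1a) in tKO. tKO against fl/fl in UUO ran from -0.76 to 0.55 (Ren1), from -0.03 to 0.21 (Agt), from -0.29 to 0.24 (Mas1) and from -0.14 to 0.03 (Atp6ap2). The cause of these shifts was not tested. Same-numbered libraries deviated together (r over 0.1) in 4 of 40 pairs. Genes called in all for tKO against fl/fl in sham were 2375, and 6 on the sham libraries alone. At 5 to 24 reads, Mas1 is limited by counting error.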
